A study of Sus scrofa with 6 samples.

Results

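Proximal tubule genes of the brush border, of inositol and creatine metabolism and of the tubular transcription programme were examined in renal cortex of pigs after warm ischemia, flush and cold storage. The set was drawn from 10 genes, as the probes whose design name was MIOX, GATM, ANPEP, GGT1, DPP4, ALPL, KHK, LRP2, CUBN or HNF4A. Of these, 6 genes had such a probe, with 16 probes in all, out of 43603 probes on the array. ALPL, KHK, LRP2 and CUBN had none under that name. Probes whose description names the megalin (LRP2) or cubilin (CUBN) protein were therefore reported beside the 6 genes and kept apart from their counts.

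In the ischemia group (n = 3), kidneys of Large White pigs aged 3 months were kept clamped for 60 min at 37 °C, then flushed cold with the organ preservation fluid University of Wisconsin solution and held at 4 °C for 24 h before sampling. In the control group (n = 3), kidneys of Large White pigs of the same age were sampled and frozen directly after removal. Clamping, flush and storage were applied together, so their effects on cortical RNA are not separated, and the protocol names no reperfusion. Each kidney gave 1 single-colour array. Each of 3 slides carried 1 ischemia and 1 control array, namely ischemia 2 with control 1 on slide 1, ischemia 3 with control 2 on slide 2, and ischemia 1 with control 3 on slide 3. Position 3 of each slide held the ischemia array and position 4 the control array, and group cannot be told apart from position. Spots well above background made up 52.6% and 52.9% on slide 1 (ischemia, then control array) and 61.4% and 61.2% on slide 3. Signals are given on the log2 scale relative to the 75th percentile of their own array, so levels can be compared between kidneys for a probe but not between probes.

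The proximal tubule reabsorbs most of the glomerular filtrate. Its apical membrane forms a brush border that carries peptidases and transferases facing the tubular fluid, and at the base of the microvilli the receptors megalin and cubilin take up filtered proteins. Its cells are also a main site of inositol breakdown and of the first step of creatine synthesis. HNF4A is a nuclear receptor that drives many of these genes. In bulk cortex, fewer proximal tubule cells and less of a transcript per cell cannot be told apart.

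The signals come from 60-base probes, and 6 of those sequences are shown because they mark the sites read in 5 of the genes, with both a downstream and an upstream site for HNF4A, at which the log2 difference was -0.45 and -0.12. Each is printed as in the design, in lower case, and each has at least 1 forward reading frame without a stop codon. For ANPEP, GATM and HNF4A the probes shown are not the brightest ones, by which the genes stand below. In ANPEP and GATM the probe shown is the one whose difference was farthest from 0 (-0.99 and -1.01).
ANPEP, A_72_P632095: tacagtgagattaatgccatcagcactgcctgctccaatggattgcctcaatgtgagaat
GGT1, A_72_P035641: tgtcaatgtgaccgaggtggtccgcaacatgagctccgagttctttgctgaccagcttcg
MIOX, A_72_P223407: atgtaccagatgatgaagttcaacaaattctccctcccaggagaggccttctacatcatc
GATM, A_72_P560189: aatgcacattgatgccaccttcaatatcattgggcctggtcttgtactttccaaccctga
HNF4A, A_72_P449980: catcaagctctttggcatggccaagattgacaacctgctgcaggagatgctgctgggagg
HNF4A, A_72_P704336: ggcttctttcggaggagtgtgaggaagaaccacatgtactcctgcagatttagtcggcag

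All 6 genes had a lower mean after ischemia, by 0.51 to 0.81 on the log2 scale, and none passed the test. Each gene stands here by its brightest probe over all 6 arrays. The median log2 difference of the 6 genes (ischemia minus control) was -0.74, beside 0.02 over the 4088 named genes tested, of which 47.3% had a difference below 0. With limma and Benjamini-Hochberg adjustment over 25013 probes, 0 of the 6 genes passed an adjusted p of 0.05, and the adjusted p ran from 0.753 to 0.906. Over all probes 0.004% passed, and over the named genes 0%. In simulated data the procedure recovered 0.4% of 2-fold and 48.2% of 4-fold changes. Not passing thus does not show that a gene was unchanged. At an unadjusted limma p under 0.05, 3 of the 6 genes (ANPEP, MIOX and GATM) lay lower, beside 2.91% of the named genes lower and 3.74% higher at that level. With slide as a block in limma, 5 of the 6 lay lower at that level, beside 3.91% of the named genes, and the adjusted p ran from 0.413 to 0.692. The shares over the named genes describe the setting of these 6 genes and do not test them as a group. None of the 6 had all ischemia values below all control values (0 of 6, beside 4.18% of the named genes). Among the 16 probes 4 did, 2 of ANPEP and 2 of GATM, and these 2 GATM probes share 49 consecutive bases. The share over all tested probes was not counted, so no reading is given to the 4 of 16.

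**Figure D1:**
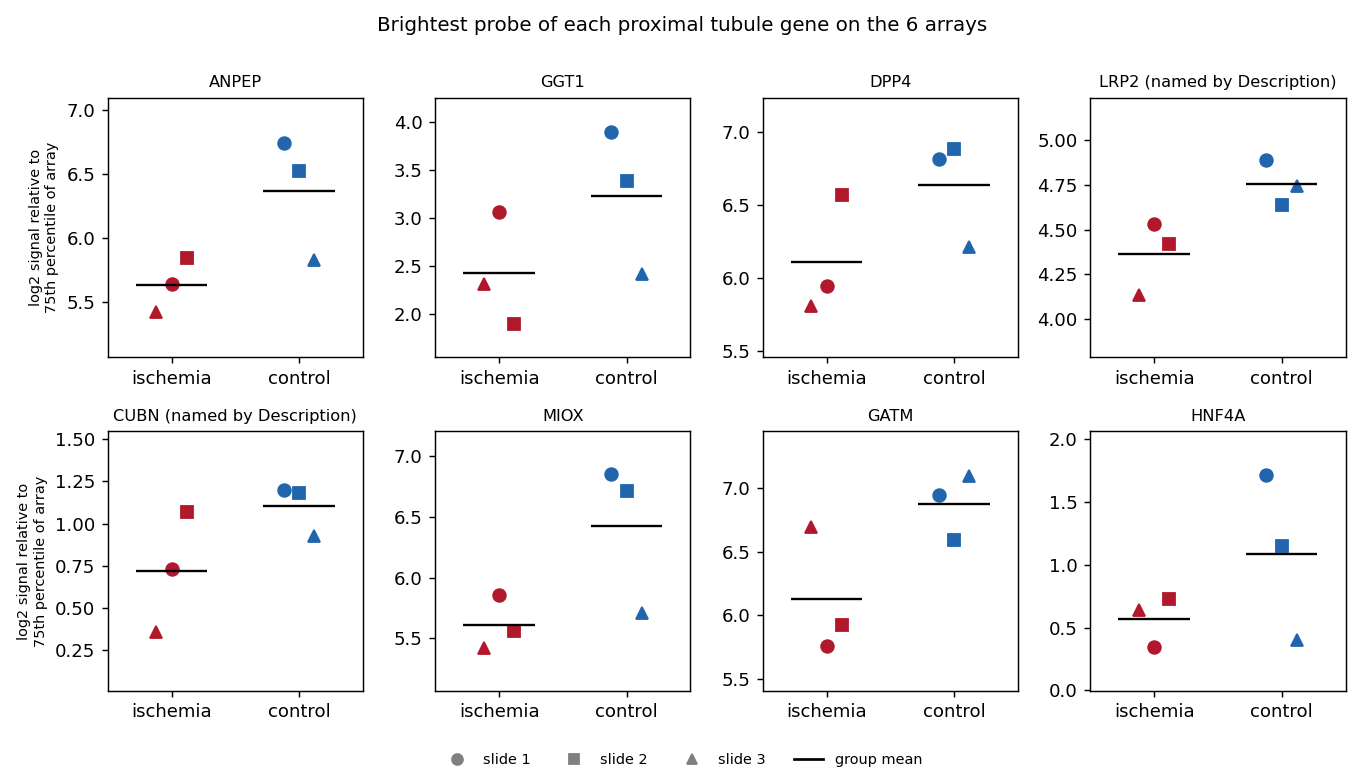
Log2 signal relative to the array's 75th percentile (vertical axis, a separate scale per panel) for the brightest probe of 8 genes, with the 3 ischemia kidneys on the left and the 3 control kidneys on the right of each panel. Symbols give the slide and bars the group mean; in ANPEP, GGT1, DPP4, MIOX, CUBN and HNF4A the control kidney on slide 3 lies below the other 2 controls, whereas in GATM it is the highest.

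Among the brush border enzymes, ANPEP encodes aminopeptidase N, which removes amino acids from the amino end of peptides in the tubular fluid. Its brightest probe read 5.42, 5.65 and 5.84 in ischemia kidneys 1 to 3, against 6.74, 6.52 and 5.83 in control kidneys 1 to 3. Control 3 lay within the ischemia range, so the groups overlapped by a narrow margin. The log2 difference was -0.73 ± 0.28 (SE, n = 3 per group; limma adjusted p = 0.753), a signal 1.65-fold lower after ischemia, with a 95% interval from -1.39 to -0.06. On slides 1, 2 and 3 the differences were -1.09, -0.68 and -0.40.

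The other ANPEP probes lie farther upstream on the same transcript. The probe from base 2879 had a difference of -0.85 ± 0.30 (limma adjusted p = 0.740) and the probe from base 2286 one of -0.99 ± 0.32 (limma adjusted p = 0.682). In both of them all ischemia values lay below all control values. The probe from base 2286 read 1.91, 2.21 and 2.28 after ischemia, against 3.64, 3.27 and 2.47 in controls, and the adjusted p of this probe was the lowest among the 16. The ANPEP differences thus ran from -0.73 at base 3281 to -0.99 at base 2286, and their intervals overlapped.

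GGT1 encodes gamma-glutamyltransferase, which starts the breakdown of glutathione at the cell surface. Its single probe read 2.32, 3.07 and 1.90 in ischemia kidneys 1 to 3, against 3.90, 3.39 and 2.42 in controls 1 to 3. Ischemia 2 lay above control 3, and both groups were widely spread, with an SD of 0.59 after ischemia and 0.75 in controls. Ischemia and control differed by -0.81 ± 0.45 (limma adjusted p = 0.881), with a 95% interval from -1.86 to 0.24. The difference was -1.22 without control 3 and -0.48 without control 1. The slides gave -0.84, -1.49 and -0.10.

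DPP4 encodes dipeptidyl peptidase 4, which trims pairs of amino acids from peptides and is also found on T cells. Its probe read 5.81, 5.95 and 6.57 after ischemia, against 6.81, 6.89 and 6.21 in controls. Ischemia 3 lay above control 3. The difference came to -0.53 ± 0.29 (limma adjusted p = 0.881), with a 95% interval from -1.22 to 0.16, and the slides gave -0.87, -0.31 and -0.40. A second probe, described by a DPP4 protein but not named for the gene, was well above background on 0 of 3 ischemia and 1 of 3 control arrays and was not tested.

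The endocytic receptors were covered only by probes named through their description. LRP2 encodes megalin, the large receptor that carries filtered proteins and vitamin carriers into the cell. Its brighter probe read 4.14, 4.53 and 4.42 after ischemia, against 4.89, 4.64 and 4.74 in controls. All ischemia values lay below all control values. The difference was smaller than in the enzymes above, at -0.39 ± 0.20 (limma adjusted p = 0.862; 95% interval -0.86 to 0.08), and the second LRP2 probe gave -0.23 ± 0.22 with overlapping groups. No test of the difference between genes was made.

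CUBN encodes cubilin, which binds albumin and the vitamin B12 carrier complex and is internalised with megalin. Its probe read 0.36, 0.73 and 1.07 after ischemia, against 1.20, 1.18 and 0.93 in controls. Ischemia 3 lay above control 3. CUBN thus differed by -0.38 ± 0.24 (limma adjusted p = 0.899), with a 95% interval from -0.95 to 0.18. It was -0.20 without ischemia 1 and -0.11 in the authors' deposited values. In both receptors the within-slide difference was farthest below 0 on slide 3, at -0.61 for LRP2 and -0.57 for CUBN, the slide on which ANPEP, GGT1, MIOX, GATM and HNF4A had their values closest to or above 0.

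**Figure D2:**
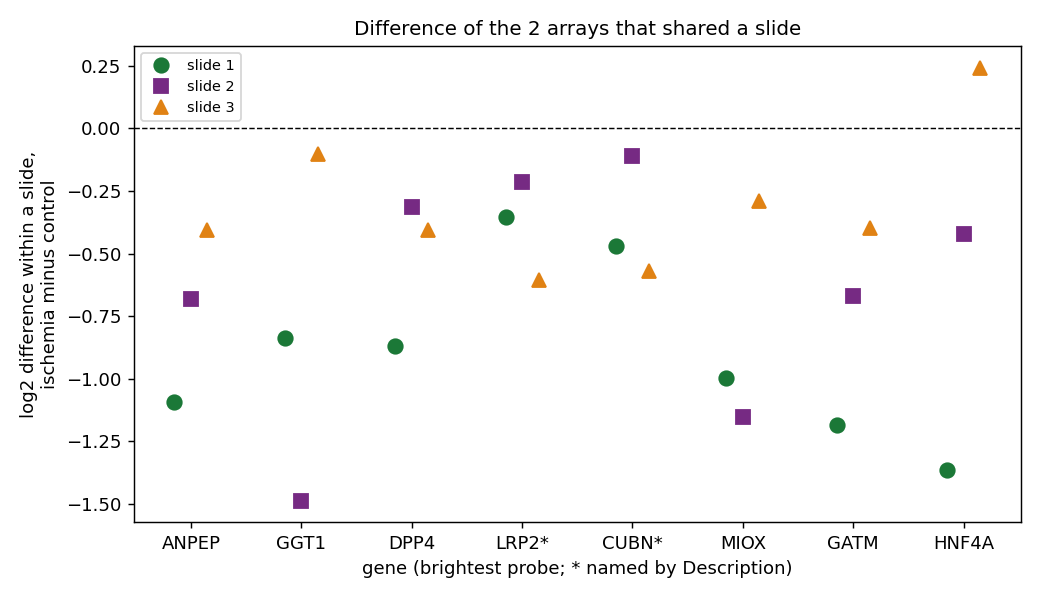
Log2 difference, ischemia minus control, between the arrays of each slide (vertical axis) for the brightest probe of 8 genes (horizontal axis; asterisks mark genes named by their description). Among the points shown, only HNF4A on slide 3 lies above 0, at 0.24.

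Of the metabolic enzymes, MIOX encodes myo-inositol oxygenase, which opens the inositol ring to give glucuronate and is known mainly from kidney. Its probe read 5.42, 5.86 and 5.56 in ischemia kidneys 1 to 3, against 6.85, 6.71 and 5.71 in controls 1 to 3. Control 3 stood below the other controls and below ischemia 2, so the groups overlapped at this kidney. The log2 difference was -0.81 ± 0.33 (limma adjusted p = 0.776; 95% interval -1.59 to -0.03), a signal 1.76-fold lower after ischemia, and it was -1.17 without control 3 and -0.60 without control 1. The slides gave -1.0, -1.15 and -0.29.

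GATM encodes glycine amidinotransferase, the mitochondrial enzyme that makes guanidinoacetate, the precursor of creatine. It was covered by 7 probes, and its brightest read 6.70, 5.76 and 5.92 in ischemia kidneys 1 to 3, against 6.94, 6.59 and 7.09 in controls 1 to 3. Here the kidney that overlapped was ischemia 1, above control 2, while control 3 was the highest of all. The log2 difference was -0.75 ± 0.30 (limma adjusted p = 0.760; 95% interval -1.45 to -0.05), and the slides gave -1.19, -0.67 and -0.40.

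The other 6 GATM probes gave the same order of the ischemia kidneys, with ischemia 2 lowest, ischemia 3 next and ischemia 1 highest. Their controls were ordered otherwise, with control 1 the highest in each of them and control 3 the lowest control in 2. Over the 7 probes the differences ran from -1.01 to -0.66, with 5 at an unadjusted limma p under 0.05. All ischemia values lay below all control values in 2 probes. For named genes by brightest probe, 2.91% were lower at that p and 4.18% had all ischemia values below all control values. The shares over all tested probes were not counted. The probe from base 969, the one shown above, had the difference farthest from 0 (-1.01 ± 0.37, limma adjusted p = 0.747). On slide 3 its difference was 0.08, against -1.92 on slide 1 and -1.19 on slide 2, and 4 of the 7 probes were above 0 on slide 3. These probes are not independent measurements, since they read 1 transcript, and 2 pairs of them share 49 and 53 consecutive bases.

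KHK encodes ketohexokinase, the first enzyme of fructose breakdown. The probe described by this protein was well above background on 1 of 3 ischemia arrays and 0 of 3 control arrays, so it was not tested and no fold is given. ALPL, the brush border alkaline phosphatase of kidney, had no probe under its name or its full protein name.

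HNF4A read 0.64, 0.35 and 0.73 after ischemia on its brightest probe, against 1.71, 1.15 and 0.40 in controls. Control 3 lay below ischemia 1 and ischemia 3, and the spread was 0.20 (SD) after ischemia against 0.66 in controls. The log2 difference was -0.51 ± 0.34 (limma adjusted p = 0.906), with a 95% interval from -1.32 to 0.29, and it was -0.86 without control 3 and -0.20 without control 1. The slides gave -1.36, -0.42 and 0.24. The 3 HNF4A probes gave -0.51 from base 1370, -0.45 from base 1236 and -0.12 ± 0.22 from base 409, the last with a limma adjusted p of 0.956, and in all 3 the groups overlapped. In this gene the upstream probe was the one closest to 0, unlike in ANPEP, and the part of probe position in these values was not tested.

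**Figure D3:**
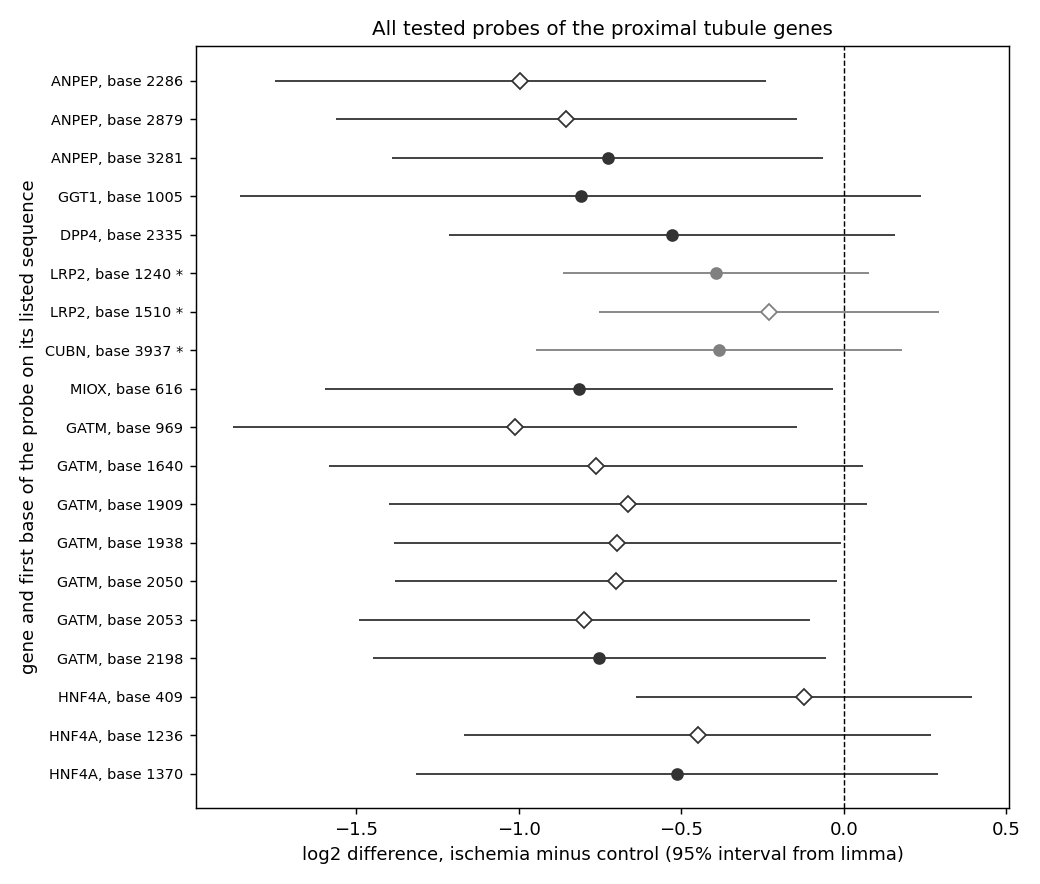
Log2 difference, ischemia minus control (horizontal axis), with the 95% interval from limma, for the 16 probes of the 6 genes and the 3 tested probes named by description (grey, asterisk). Filled circles are the brightest probe of a gene and open diamonds its other probes, ordered within a gene by the first base of the probe on its listed sequence; all estimates lie below 0, and the intervals of GGT1, DPP4, HNF4A, LRP2, CUBN and 2 of the 7 GATM probes include 0.

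The kidneys differed among themselves in a way that most of the 6 genes, and genes outside the set, shared. Control 3 was the lowest control in 5 of the 6 genes, GATM being the other, and control 1 was the highest of all 6 kidneys in 4. Genes outside the set, from the lists given below, had control 3 lowest too, among them SLC34A1, TCN2 and AKR1A1, though not SLC22A6 or SLC2A2. Named genes outside all of the lists also had control 3 as the lowest control, while others did not. The share over all named genes was not counted, so this order is not shown to be particular to the members. After centring each gene on its own mean over the arrays, the members averaged -0.38, -0.32 and -0.34 in ischemia kidneys 1 to 3, against 0.74, 0.45 and -0.15 in control kidneys 1 to 3. In this average the ischemia kidneys thus lay close together, and most of the spread was among the controls. By gene, the SD was larger in controls for ANPEP, GGT1, MIOX and HNF4A. It was larger after ischemia for GATM (0.50 against 0.26 in controls) and DPP4 (0.41 against 0.37). The median log2 difference of the 6 genes was -0.93 without control 3 and -0.51 without control 1, and 5 and 0 of the 6 genes reached an unadjusted limma p under 0.05 in these fits, beside 4.55% and 2.01% of the named genes lower at that level. By slide, 6, 6 and 5 of the 6 genes were lower after ischemia on slides 1, 2 and 3, with medians of -1.05, -0.68 and -0.34. The medians over all named genes on these slides were -0.02, -0.04 and 0.13. For 5 of the 6 the ischemia array was the lower on all slides, beside 14.1% of the named genes.

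By brightest probes, the GATM profile lay farthest from the other members. After centring it differed from the mean of the other 5 by a root mean square of 0.56 over the 6 arrays, against 0.14 for ANPEP, 0.21 for MIOX, 0.24 for HNF4A, 0.32 for DPP4 and 0.46 for GGT1. The place of GATM depends on the probe, since its other 6 probes gave 0.45 to 0.53, with the lowest of them below GGT1. Ischemia 1 was high in GATM alone, at 0.19 above the mean of the gene, and lay below the mean of the gene in the other 5. GGT1 and DPP4 differed in opposite ways, with ischemia 2 above the mean of the gene in GGT1 (0.23) and ischemia 3 above it in DPP4 (0.20).

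Of 3795 other named genes well above background on all arrays, the 5 whose profile over the 6 kidneys was most like the mean of the members were SLC34A1, B3GALT4, SOX18, CBR1 and SLC34A3. The root mean square difference was 0.09 for SLC34A1, the main sodium-phosphate cotransporter of the brush border, and 0.13 for SLC34A3, another cotransporter of that family. It was 0.10 for B3GALT4, a galactosyltransferase, 0.11 for SOX18, a transcription factor of endothelium, and 0.12 for CBR1, a carbonyl reductase, beside a median of 0.47 over all genes ranked. The ranking is a description over 6 kidneys by the brightest probe of each gene, and no test was made. The SLC34A1 probe ranked had a log2 difference of -0.64, whereas a second SLC34A1 probe was at 0.35.

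The wider proximal tubule lists did not lie lower throughout. Their counts below stand beside 47.3% of the named genes below 0. At an unadjusted limma p under 0.05, 2.91% of the named genes were lower and 3.74% higher. Among other brush border hydrolases and their scaffold, 3 of 6 tested genes lay below 0 and 3 above, with a median of 0.04, and 0 of 6 had an unadjusted limma p under 0.05. XPNPEP2, a membrane aminopeptidase, was at 0.41 ± 0.24 (limma adjusted p = 0.889), although its other probe was at -0.14. MME, the endopeptidase neprilysin, was at 0.28 ± 0.22 and ENPEP, aminopeptidase A, at -0.22 ± 0.22. Each of these 3 had a limma adjusted p of 0.889 or more. Leaving out 1 array brought XPNPEP2 to 0.21 (control 3), MME to 0.16 and ENPEP to -0.06 (both ischemia 3).

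Of 8 tested partners and cargo handlers of megalin and cubilin, 6 lay below 0, with a median of -0.25. TCN2, the vitamin B12 carrier taken up through megalin, was the only one at an unadjusted limma p under 0.05, beside 2.91% of the named genes lower. It read 3.28, 3.80 and 3.70 after ischemia, against 4.73, 4.18 and 3.87 in controls, and its difference was -0.67 ± 0.28 (limma adjusted p = 0.789). CTSB, a lysosomal protease, was at -0.50 ± 0.34, but at -0.13 without ischemia 3 and -0.78 without ischemia 2. FOLR1, a folate receptor, was at -0.39 ± 0.27, with other FOLR1 probes up to 0.51, and at -0.24 without control 2 and -0.62 without control 3. TCN2 was at -0.43 without control 1.

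Among other metabolic enzymes 5 of 8 lay below 0, with a median of -0.09, and 0 of 8 had an unadjusted limma p under 0.05. AKR1A1, an aldehyde reductase that acts on glucuronate, the product of MIOX, was at -0.71 ± 0.31 (limma adjusted p = 0.809), with within-slide values of -1.65, -0.15 and -0.33 and a difference of -0.46 without control 1. DDC, the enzyme that makes dopamine in the tubule, was at -0.37 ± 0.22. HPD, an enzyme of tyrosine breakdown, was at 1.18 ± 0.81, with ischemia values from -2.17 to 1.33 and another probe at -0.07. Its difference was 0.40 without ischemia 1 and 2.15 without ischemia 3.

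Solute transporters lay below 0 in 10 of 14, beside 47.3% of the named genes, with a median of -0.28. At an unadjusted limma p under 0.05 there were 2 lower and 1 higher, beside 2.91% and 3.74% of the named genes. SLC22A6, an organic anion transporter, was at -1.03 ± 0.36 (limma adjusted p = 0.729) and SLC34A1 at -0.64 ± 0.27, with a second SLC34A1 probe at 0.35. SLC2A2, the basolateral glucose transporter GLUT2, lay the other way at 1.08 ± 0.18 (limma adjusted p = 0.382). Its values after ischemia, 0.64, 0.54 and 0.38, all lay above the control values of -0.62, -0.55 and -0.50, as in 7.66% of the named genes.

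Of 6 tested tubule transcription factors besides HNF4A, 3 lay below 0, with a median of -0.04. In each direction 1 had an unadjusted limma p under 0.05, beside 2.91% of the named genes lower and 3.74% higher. NR1H4, the bile acid receptor FXR, was at 1.00 ± 0.21 (limma adjusted p = 0.470), with values of 2.74, 3.20 and 2.88 after ischemia against 2.13, 1.88 and 1.82 in controls. CEBPA was at -0.60 ± 0.24 (limma adjusted p = 0.774) and PPARA, a regulator of fatty acid oxidation, at -0.29 ± 0.22, or -0.16 without ischemia 1.

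**Figure D4:**
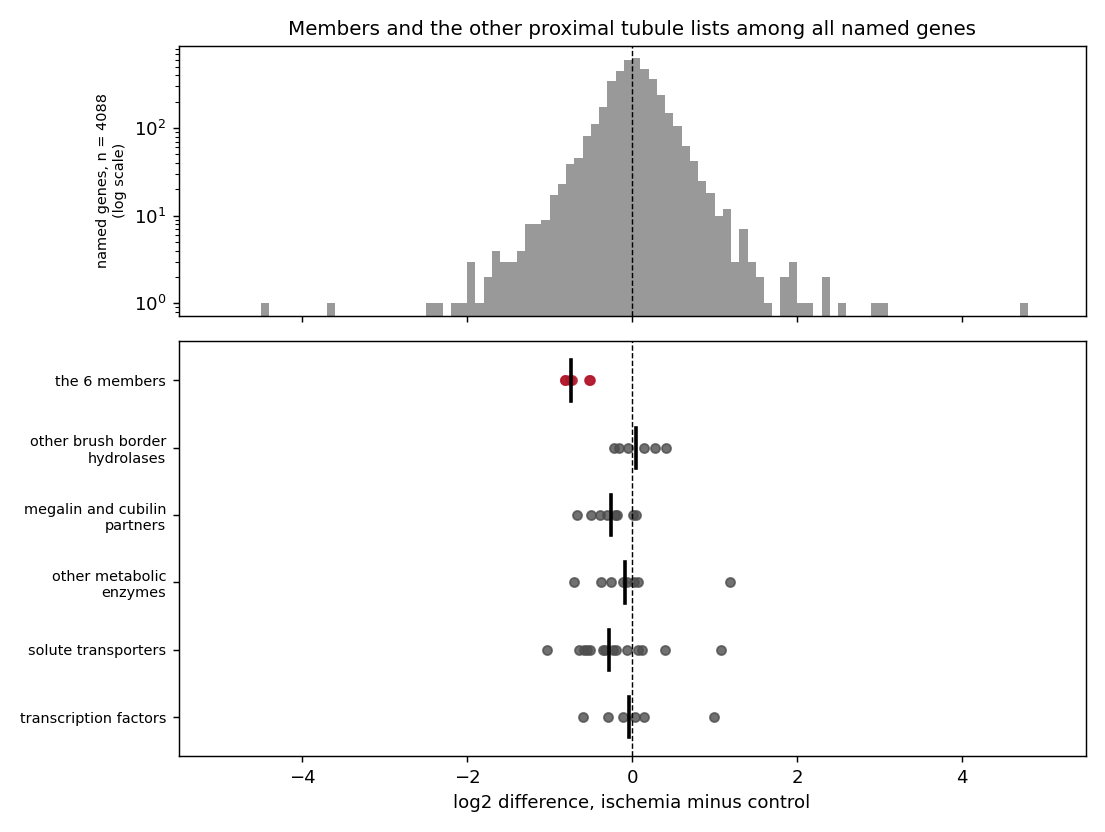
Top, number of named genes (log scale) by log2 difference, ischemia minus control, for 4088 genes. Bottom, the same difference for each of the 6 members (red) and the tested genes of the other proximal tubule lists (grey), with the median as a bar, at -0.74 for the members and between -0.28 and 0.04 for the lists.

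Markers of other cell types were read beside these values, and their part in the differences was not tested. The summed signal of the 4 tested leukocyte markers of 7 listed (CD163, CD14, CD3E and AIF1), in units of the array's 75th percentile, ran from 9.75 to 14.5 after ischemia and from 7.81 to 8.69 in controls. Within that list CD163, a macrophage receptor, was at 1.42 ± 0.32 (limma adjusted p = 0.496) and CD14 at -0.42 ± 0.26, with another CD14 probe at 0.34. A sum is led by its brightest probes. For 4 of 7 fibroblast and smooth muscle markers the sum ran from 114 to 138 after ischemia and from 92.8 to 109.6 in controls, with 3 of the 4 above 0 and COL1A2, a collagen chain, at -1.64 ± 0.30 (limma adjusted p = 0.385). The mean log2 level of the same 4 markers lay the other way, at 2.23 to 2.50 after ischemia and 2.51 to 2.56 in controls. For 5 of 6 endothelial markers the summed signal ran from 22.7 to 34.6 after ischemia and from 25.9 to 27.5 in controls. Collecting duct markers (4 of 6) summed to 12 to 20.4 after ischemia and 16.9 to 25.1 in controls, and loop of Henle markers (2 of 4) to 8.09 to 11.6 after ischemia and 8.69 to 10.7 in controls. The ranges overlapped for both. Distal tubule markers (2 of 4) summed to 17.9 to 48.9 after ischemia and 14.0 to 27.1 in controls, and podocyte markers (2 of 5) to 0.788 to 1.58 after ischemia and 0.534 to 0.892 in controls. Proximal tubule markers (4 of 8, namely SLC22A6, GATM, MIOX and SLC34A1) summed to 197 to 253 after ischemia and 314 to 432 in controls, and were well above background on all arrays. By brightest probe, all 4 lay below 0 at an unadjusted limma p under 0.05, beside 2.91% of the named genes lower at that level. Of these 4 markers, 2 are members of the set. A second SLC34A1 probe lay at 0.35. In the wider list of solute transporters, which holds SLC22A6 and SLC34A1, 4 of 14 lay above 0, SLC2A2 among them at 1.08. LRP2 and CUBN are on the proximal tubule marker list but had no named probe. Their brightest probes by description lay below 0 at an unadjusted limma p of 0.089 and 0.152. None of the 4 red cell markers had a named probe.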

How the data were processed

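Spot intensity was taken from the authors' scanner output. Per the file headers, Agilent Feature Extraction 10.10.1.1 made these intensity values with background subtraction and detrending inside each array and no scaling between arrays. The submitters' processing notes name version 11.5.1.1, limma and R 2.15.2. A table of log2 values deposited by the authors, with column medians of 5.91 to 5.99, served as an alternative. How it was normalized was not stated in the sources used here.

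The log2 of the processed signal was set relative to its 75th percentile on the same array, without control and outlier spots; no spot was saturated. Probes well above background on at least 3 arrays, with values on at least 5, were tested (25013 of 43603). Of 11994 probes with a symbol, 8556 took it from the gene name in the files and 3438 through gene tables, by older symbols, accessions or gene numbers. Groups were compared by limma 3.58.1 in R 4.3.3 (two-sided, Benjamini-Hochberg over all probes), and the procedure was tested on simulated data. An exact permutation test of 3 against 3 cannot go below 0.1, so none is given. The kidneys came from different pigs, per the labels.

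Members and lists were chosen with earlier results of these data known. Named genes are all members, up to 3 tested genes per list by smallest p, and 5 genes by likeness of profile, while the cell type markers were named after their values were seen. The use of descriptions for LRP2, CUBN, KHK, ALPL and a second DPP4 probe was also chosen after seeing the files. Alternatives were background correction, scaling, filters, outlier spots, array weights, an intensity trend, blocks by slide or sample number, the mean of a gene's probes, the deposited values and leaving out each array. Sample numbers did not pair the arrays (correlations of deviations -0.35, -0.17 and -0.05), whereas arrays of 1 slide had positive correlations (0.34, 0.10 and 0.33 on slides 1 to 3). The value on slide 2 was close to the 0.06 of ischemia 1 with control 2, which share neither slide nor number.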

Additional observations from a re-analysis of the deposited data

How the results depend on the processing

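All 6 members stayed below 0 in each of the 18 alternatives computed for them. No member passed in the 17 of these that gave a test, with adjusted p from 0.116 upward. Averaging the probes of each gene gave a value only. Their median log2 difference ran from -0.93 to -0.51 over the fits that left out 1 array, and was -0.59 with arrays centred on their median and -0.52 in the deposited values, which hold other probes for ANPEP and GATM. In these 2 settings the median of all probes moved to 0.11 and 0.14, beside -0.04. With LRP2 and CUBN added, 8 of 8 lay below 0, with a median of -0.63. In the deposited values DPP4 was at -0.27, HNF4A at -0.25 and LRP2 at -0.18. Members at an unadjusted p under 0.05 numbered 3, beside 2.91% of the named genes lower at that level. They were 5 with array weights (8.37%), slide as a block (3.91%) or without control 3 (4.55%). They were 2 with quantile normalization (2.57%), no filter on dim probes (2.18%) or without ischemia 3 (3.38%), and 1 without control 2 (1.49%), ischemia 1 (2.15%) or ischemia 2 (2.42%). They were 0 with median centring (1.32%), without control 1 (2.01%) or in the deposited values (0.977%, 4 members compared).

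The number of probes passing over the whole array was 1. It was 21 with array weights, 11 with median centring, and 3 each with the deposited values, an intensity trend, normexp or a filter on all 6 arrays. It was 0 with quantile normalization, with no filter on dim probes, with slide as a block or with sample number as a replicate block, and 0 to 1 when 1 array was left out. The cause was not tested. With the replicate block by sample number, which does not pair these arrays, 2 of 6 members had an unadjusted p under 0.05 (2.35% of the named genes) and the median stayed at -0.74. With 3 arrays a group, precision is limited throughout.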
